A study of Rattus norvegicus with 8 samples.

Results

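Levels of 10 transcripts of the synaptic vesicle and its release machinery were followed in rat myelinating spinal cord cultures kept with or without added FGF9, a fibroblast growth factor that cells secrete and that binds FGF receptors. The genes were Sv2a, Sv2b, Sv2c, Syt1, Syt4, Snap25, Vamp2, Syn1, Syn2 and Syp. They form a list of names whose rule uses no measured value, although the list was drawn up with earlier results of these data known, and each was represented by its feature with a single annotated gene symbol; all 10 had exactly 1 such feature, out of 14506 genes measured. All 8 arrays hold total RNA of Sprague-Dawley cultures started from spinal cord cells of E15.5 embryos, a mixture of neurons and glia in which axons become myelinated. The control group received no FGF9 and the treated group received human FGF9 protein at 100 ng/ml, and collection at 24 h and at 10 days gave 4 groups of 2 arrays. The labels' protocol also describes astrocyte monolayers grown from striatal neurospheres of newborn rats. The source field of every sample instead names astrocytes derived from neurospheres, while the titles and the cell type field call every sample a myelinating culture. Whether replicate arrays came from different cultures is not stated in the labels, and the p-values speak only of the spread among these arrays, which may be technical.

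At a chemical synapse the axon terminal stores transmitter in vesicles and releases it when calcium enters. Synapsins tether vesicles in a reserve pool, the vesicle protein Vamp2 and the plasma membrane protein Snap25 form, with a syntaxin, the SNARE complex that fuses the membranes, and synaptotagmin 1 is the calcium sensor that triggers fusion. Synaptophysin and the SV2 glycoproteins are abundant vesicle membrane proteins. In spinal cord the mature set is made mainly by neurons. In a mixed culture a change in the mix of cells and a change of RNA per neuron cannot be told apart by these arrays.

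After 10 days, all 10 transcripts had a lower mean with FGF9 than without it, with a median difference of -0.77 log2 units, against 46.8% of all genes with a lower mean. Leaving out 1 array, which unbalances the pairs, moved that median from -1.19 (without the pair 1 control of 10 days) to -0.22 (without the pair 2 control of 10 days), while the pair medians were -0.79 and -0.86. Sv2b showed the largest difference (-58.4% of the control level) and Vamp2 the smallest (-22.4%). Control and FGF9 arrays of a time that carry the same replicate number share an array name prefix and are called a pair here. With the prefix as a block, which for FGF9 effects equals a block for the pair, 6 of the 10 fell at an adjusted p under 0.05: Sv2b, Syt1, Snap25, Syn1, Syn2 and Syp. By this rule 6.43% of all 14506 genes passed, 3.31% lower and 3.12% higher. Without the block no gene passed (0 of 10, background 0%); 1 of the 10 and 816 of all genes were at an unadjusted p under 0.05. The count depended on single pairs. Without the pair 2 arrays of 10 days only Syp passed, and without the pair 1 arrays of 10 days 6 passed, of which 4 were among the original 6. Leaving out either 24 h pair left 4 (Sv2b, Syt1, Syn1 and Syn2). Snap25 missed the threshold in all 4 of these fits, with adjusted p-values from 0.0512 to 0.0875. With the prefix as a random block only Sv2b passed (adjusted p = 0.0455), and the other 5 had adjusted p-values of 0.147 (Syp), 0.247 (Syn2), 0.308 (Snap25), 0.309 (Syt1) and 0.469 (Syn1).

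Values are log2 expression as deposited, and array medians lay between 6.62 and 6.73. Prefixes are CL1 (24 h pair 1), CL2 (24 h pair 2 and 10 days pair 1) and AA1 (10 days pair 2). The 2 AA1 arrays correlated with the others at 0.897 to 0.939 across features, and the 6 others with each other at 0.962 to 0.989. Same-numbered arrays deviated together from their group means, at a correlation of 0.757 across genes at 24 h and 0.819 at 10 days. The difference between FGF9 and control is the same with and without the block; the block changes its standard error. Each 10-day error below is the SE with the block, and n is 2 per group throughout.

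**Figure D1:**
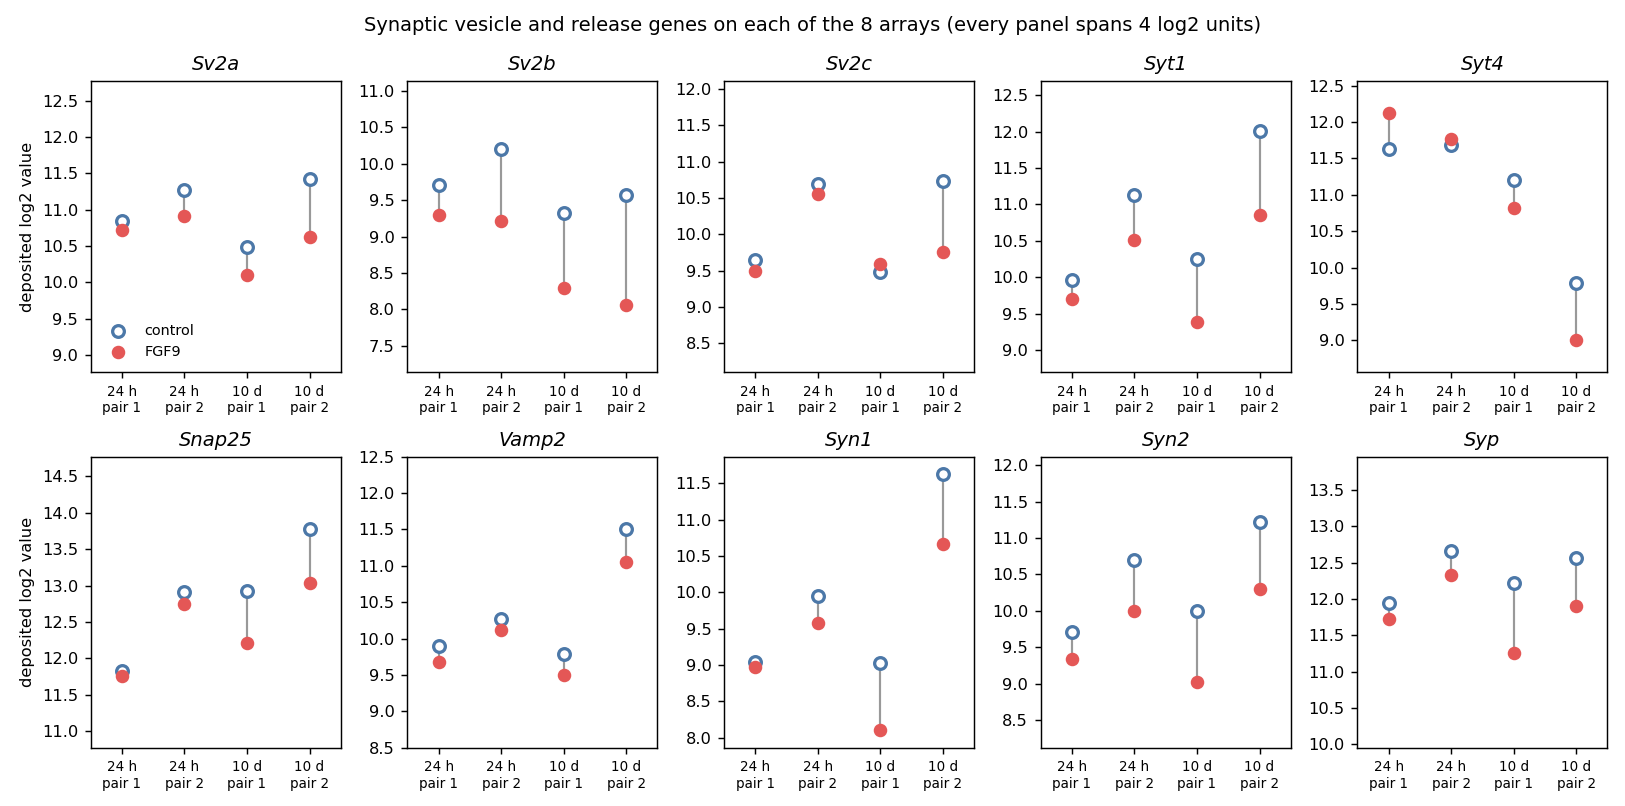
Deposited log2 values of the 10 genes on the 8 arrays, by time and pair, with control as open circles and FGF9 as filled circles; every panel spans 4 log2 units and grey lines join a pair. At 10 days the filled circle lies below the open one in every pair except pair 1 of Sv2c, and the distance between pairs is often larger than that within them (Syn1 stood at 9.02 and 11.62 in the 10-day controls).

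The promoters of the genes that fell with the block and have an entry, which are 5 of the 6, are shown so that the sequences upstream of them can be compared. They run from 250 bases before to 50 bases after the annotated gene start, from RefSeq on build GRCr8, and 9 of the 10 genes matched (all but Snap25). Capitals mark exact matches, on either strand, to motifs searched in all windows. Those with a match here are the GC box GGGCGG, bound by Sp factors, the CCAAT box CCAAT, and the cAMP response element TGACGTCA with its shorter core TGACG, which overlaps it.
Sv2b (chr1:138562209-138562508, minus strand): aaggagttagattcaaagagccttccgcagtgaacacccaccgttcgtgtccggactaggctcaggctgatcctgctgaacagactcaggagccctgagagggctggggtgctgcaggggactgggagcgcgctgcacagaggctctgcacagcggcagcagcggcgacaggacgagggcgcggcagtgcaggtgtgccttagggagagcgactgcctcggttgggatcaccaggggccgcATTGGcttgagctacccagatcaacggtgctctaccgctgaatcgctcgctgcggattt
Syt1 (chr7:46244164-46244463, minus strand): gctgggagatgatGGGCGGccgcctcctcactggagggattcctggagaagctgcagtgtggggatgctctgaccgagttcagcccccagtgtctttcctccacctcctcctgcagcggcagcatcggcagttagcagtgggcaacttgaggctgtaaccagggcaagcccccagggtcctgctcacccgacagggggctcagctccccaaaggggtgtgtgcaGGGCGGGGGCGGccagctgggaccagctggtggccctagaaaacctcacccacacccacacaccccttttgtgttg
Syn1 (chrX:3725495-3725794, plus strand): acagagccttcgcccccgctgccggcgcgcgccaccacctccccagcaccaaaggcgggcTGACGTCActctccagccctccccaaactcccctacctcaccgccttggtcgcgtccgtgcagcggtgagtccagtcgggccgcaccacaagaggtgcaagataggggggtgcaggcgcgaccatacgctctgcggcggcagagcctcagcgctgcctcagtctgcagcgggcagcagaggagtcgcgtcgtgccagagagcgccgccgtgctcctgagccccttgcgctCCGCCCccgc
Syn2 (chr4:149858669-149858968, plus strand): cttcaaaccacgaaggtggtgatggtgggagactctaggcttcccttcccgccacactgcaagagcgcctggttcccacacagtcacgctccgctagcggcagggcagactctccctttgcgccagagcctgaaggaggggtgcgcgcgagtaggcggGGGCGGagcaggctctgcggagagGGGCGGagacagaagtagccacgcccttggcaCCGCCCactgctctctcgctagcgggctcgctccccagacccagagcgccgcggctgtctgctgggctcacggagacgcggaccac
Syp (chrX:17536400-17536699, minus strand): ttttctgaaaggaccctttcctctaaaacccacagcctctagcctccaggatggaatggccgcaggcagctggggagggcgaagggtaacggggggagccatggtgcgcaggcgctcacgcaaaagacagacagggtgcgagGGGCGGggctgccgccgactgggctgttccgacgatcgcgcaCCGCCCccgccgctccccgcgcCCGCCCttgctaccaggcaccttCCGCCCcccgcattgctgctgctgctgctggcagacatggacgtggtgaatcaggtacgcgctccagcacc
TGACG runs in capitals as part of the longer match in Syn1. GGGCGG was found in 6 of the 9 windows against 33.1% of 33465 promoters of that length, and 4 matches lay in the window of Syp. The full TGACGTCA was found in 1 of the 9, Syn1, starting 190 bases before the gene start, against 1.83% of all. TGACG was found in 3 of 9 (21.2% of all), CCAAT in 2 of 9 (37.5%) and GCGTGGGCG, an Egr site, in 1 of 9, Vamp2 (0.544%). The left and right parts of the element bound by the neuronal gene repressor REST, TTCAGCACC and GGACAGC, were in 0 of 9 windows (0.356% and 6.59% of all), as was TATAAA (14.2%). An exact search of these windows misses any site that lies outside them, crosses their edge or differs by a base. These counts therefore do not show that the genes lack sites for REST. The 9 windows had a median GC content of 67%, against 51.7% over all, and a median of 25 CpG dinucleotides, against 7.

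The SV2 proteins are large glycoproteins of the vesicle membrane, and SV2A binds the antiepileptic drug levetiracetam. Sv2b stood at 9.71 and 10.21 in the 24 h controls (pairs 1 and 2) and at 9.30 and 9.22 in the 24 h FGF9 arrays. At 10 days it stood at 9.32 and 9.57 in controls and at 8.30 and 8.07 with FGF9. The FGF9 arrays lay below both controls at each time, and both 10-day FGF9 arrays lay below the 6 other arrays. The groups ran from control at 24 h (9.96 ± 0.36, SD), through control at 10 days (9.45 ± 0.18) and FGF9 at 24 h (9.26 ± 0.05), to FGF9 at 10 days (8.18 ± 0.16). The middle groups of that order lay about as far apart as the arrays within them. Sv2b fell at 10 days by 1.27 ± 0.20 log2 units (adjusted p = 0.0284 with the block and 0.397 without it), with -1.02 and -1.51 in the pairs.

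Sv2a, the SV2 form found in most neurons, stood at 10.84 and 11.27 in the 24 h controls and at 10.72 and 10.91 with FGF9. At 10 days the controls were at 10.49 and 11.43 and the FGF9 arrays at 10.11 and 10.62. The FGF9 array was the lower in each pair, but the groups overlapped at both times. The 10-day difference was -0.60 ± 0.16 (adjusted p = 0.0889). Sv2c, a form enriched in some neurons of the basal ganglia and brainstem, stood at 9.48 and 10.74 in the 10-day controls and at 9.60 and 9.75 with FGF9. It was the only member whose pairs went opposite ways at 10 days, with 0.12 in pair 1 and -0.98 in pair 2, and its difference was -0.43 ± 0.26 (95% interval -1.07 to 0.20, adjusted p = 0.383). At 24 h Sv2c stood at 9.65 and 10.69 in controls and at 9.50 and 10.56 with FGF9, so the pairs lay further apart than the treatments. Whether Sv2b, Sv2a and Sv2c differ from each other in their response was not tested.

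Syt1, the fast calcium sensor, stood at 10.26 and 12.01 in the 10-day controls and at 9.39 and 10.85 with FGF9. The FGF9 array was lower in each pair, and the groups overlapped because pair 2 was high under both conditions. Syt1 fell by 1.01 ± 0.16 (adjusted p = 0.0275), a change of -50.4% on the linear scale. At 24 h it stood at 9.96 and 11.13 in controls and at 9.71 and 10.52 with FGF9, a difference of -0.43 ± 0.16 that did not pass (adjusted p = 0.363).

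Syt4, a synaptotagmin whose first calcium-binding domain carries a substitution and which is also found on secretory organelles of glia and endocrine cells, had another pattern. At 24 h it stood at 11.63 and 11.69 in controls and at 12.12 and 11.77 with FGF9, the higher in both pairs. At 10 days it stood at 11.20 and 9.78 in controls and at 10.82 and 9.01 with FGF9, the lower in both pairs. The 24 h difference was 0.28 ± 0.17 (adjusted p = 0.571) and the 10-day difference -0.58 ± 0.17 (adjusted p = 0.113). The AA1 control array held the highest value of 7 members (Sv2a, Sv2c, Syt1, Snap25, Vamp2, Syn1 and Syn2), whereas the 2 AA1 arrays held the lowest values of Syt4.

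Snap25, the neuronal SNARE protein of the plasma membrane, stood at 12.93 and 13.78 in the 10-day controls and at 12.21 and 13.03 with FGF9. The pairs differed by almost the same amount, -0.71 and -0.75, and Snap25 fell by 0.73 ± 0.13 (adjusted p = 0.0359). At 24 h it stood at 11.83 and 12.91 in controls and at 11.76 and 12.74 with FGF9, and the difference was -0.12 ± 0.13. Its partner on the vesicle, Vamp2, stood at 9.78 and 11.50 in the 10-day controls and at 9.50 and 11.05 with FGF9. Vamp2 was lower in both pairs, by a difference of -0.37 ± 0.13 (95% interval -0.69 to -0.039, adjusted p = 0.17). Its 24 h values were 9.90 and 10.26 in controls and 9.68 and 10.12 with FGF9, a difference of -0.18 ± 0.13.

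The synapsins coat vesicles and bind them to the actin cytoskeleton. Syn1 stood at 9.02 and 11.62 in the 10-day controls and at 8.10 and 10.66 with FGF9. This was the widest gap between pairs of any member, while the differences within pairs, -0.92 and -0.96, were close. Syn1 fell by 0.94 ± 0.14 (adjusted p = 0.0266), and its SE without the block was 1.09. Syn2 stood at 10.00 and 11.22 in the 10-day controls and at 9.02 and 10.30 with FGF9, and fell by 0.95 ± 0.15 (adjusted p = 0.0273). Syp, synaptophysin, the vesicle protein most used to stain synapses, stood at 12.22 and 12.57 in the 10-day controls and at 11.25 and 11.91 with FGF9. It fell by 0.81 ± 0.15 (adjusted p = 0.0359), and as for Sv2b both FGF9 arrays lay below both controls. Groups were separated in this way for 2 of the 10 genes, against 11.3% of all genes; the FGF9 array was lower in both pairs for 9 of the 10, against 30% of all genes (33.2% were higher in both).

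After 24 h the same transcripts showed smaller differences. The FGF9 array was lower than its control in both pairs for 9 of the 10 genes, all but Syt4, against 32.9% of all genes (31.8% were higher in both), and the median difference was -0.23 (over all genes -0.0015), at -0.18 in pair 1 and -0.34 in pair 2. Leaving out 1 array moved it from -0.66 (without the pair 1 control of 24 h) to 0.12 (without the pair 2 control of 24 h), so its sign depends on the pairs being complete. Both FGF9 arrays lay below both controls for 1 of the 10, Sv2b, against 14.5% of all genes. None of the 10 passed in limma with the block or without it (0 of 14506 genes, background 0%). With the block 3 of the 10 were at an unadjusted p under 0.05, and 1800 of all genes. These were Sv2b (-0.70 ± 0.20), Syn2 (-0.53 ± 0.15) and Syt1, with adjusted p-values of 0.277, 0.258 and 0.363. Syn2 stood at 9.71 and 10.70 in the 24 h controls and at 9.34 and 10.00 with FGF9. The values of Syn1 were 9.04 and 9.95 in controls and 8.98 and 9.57 with FGF9, and those of Syp 11.94 and 12.66 in controls and 11.73 and 12.33 with FGF9. Neither Syn1 (-0.22 ± 0.14) nor Syp (-0.27 ± 0.15) passed, and their groups overlapped.

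**Figure D2:**
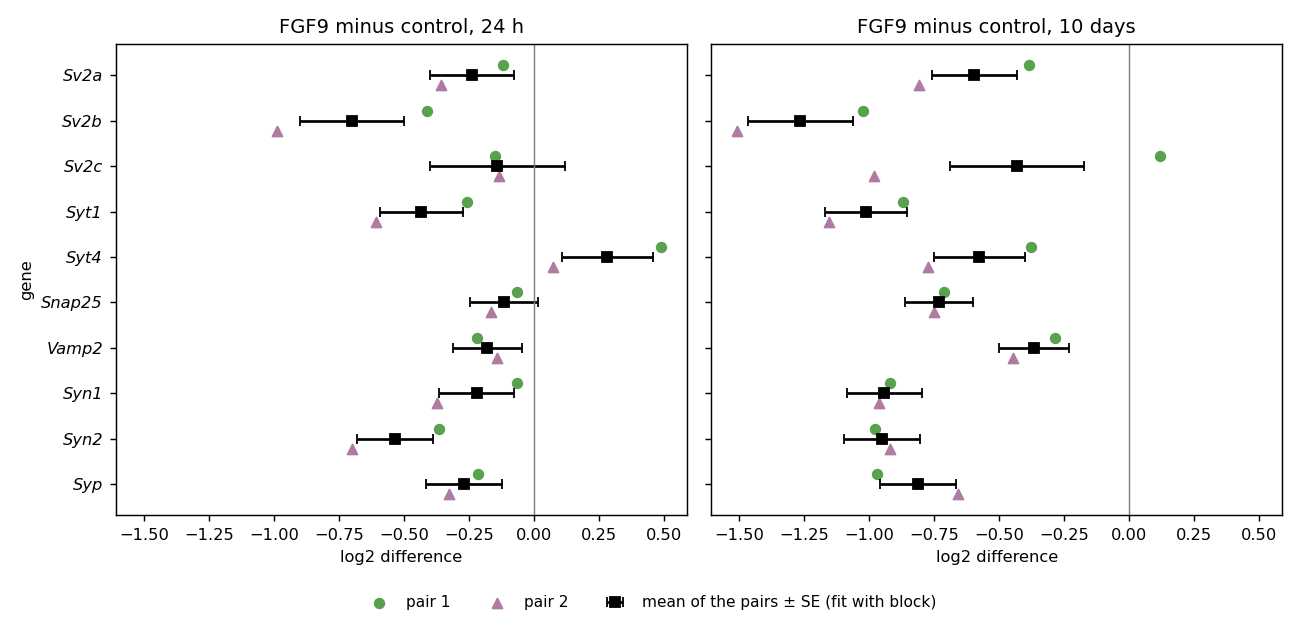
FGF9 minus control in log2 units for each gene at 24 h (left) and 10 days (right); circles are pair 1, triangles pair 2, and squares the mean of the pairs with bars of 1 SE from the fit with the block. The mean at 10 days lies further below 0 than that at 24 h for every gene, although pair 1 of Sv2c is above 0 (0.12); Syt4 is above 0 at 24 h (0.28) and below it at 10 days (-0.58).

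The change of the FGF9 effect between the times was tested as the difference of the differences. It was below 0 for all 10 genes, with a median of -0.55 against 0.003 over all genes. With the block none of the 10 passed and 5 were at an unadjusted p under 0.05 (1866 of all genes); 0.0483% of all genes passed, all of them in the other direction. The sizes were -0.86 ± 0.25 for Syt4 (adjusted p = 0.273), -0.72 ± 0.20 for Syn1 (0.267), -0.62 ± 0.18 for Snap25 (0.285), -0.58 ± 0.22 for Syt1 (0.368) and -0.54 ± 0.21 for Syp (0.36). So no single member was shown to respond differently at the 2 times. Without the block 0 of the 10 were at an unadjusted p under 0.05 (276 of all genes).

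Change with time in culture could be compared within a prefix only for CL2, which holds 24 h pair 2 and 10 days pair 1, with 1 array per group and therefore no test. There 9 of the 10 transcripts were lower at 10 days in the control arrays, with a median of -0.74, and all 10 in the FGF9 arrays, with a median of -0.95. Of all 14506 genes, 7187 were lower in the controls and 7092 with FGF9, with medians of 0.0035 and 0.013. Syn1 went from 9.95 to 9.02 in the controls and from 9.57 to 8.10 with FGF9. Snap25 was the control exception, at 12.91 and 12.93. Over all arrays, which mixes prefixes, 4 of the 10 were lower at 10 days in controls and 6 with FGF9. The fit with the block takes its estimate of time from the CL2 pair means, shifted by the FGF9 effects estimated over all pairs. Its medians for the 10 were therefore other than those within CL2, at -0.62 in controls and -1.10 with FGF9. The error in this fit comes from the FGF9 and control differences within prefixes, so its counts are a description and no test of time. In controls it put none of the 10 past the threshold (background 0.00689%; 8 of the 10 and 1990 of all genes at an unadjusted p under 0.05). With FGF9 it put 7 of the 10 past it, all lower (all but Sv2c, Snap25 and Vamp2), against 6.07% of all genes lower and 4.88% higher (11% in all). That count was 1 without the CL1 pair, 8 without the AA1 pair, 0 with the prefix as a random block and 0 without a block (2 of the 10 and 1430 of all genes at an unadjusted p under 0.05).

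**Figure D3:**
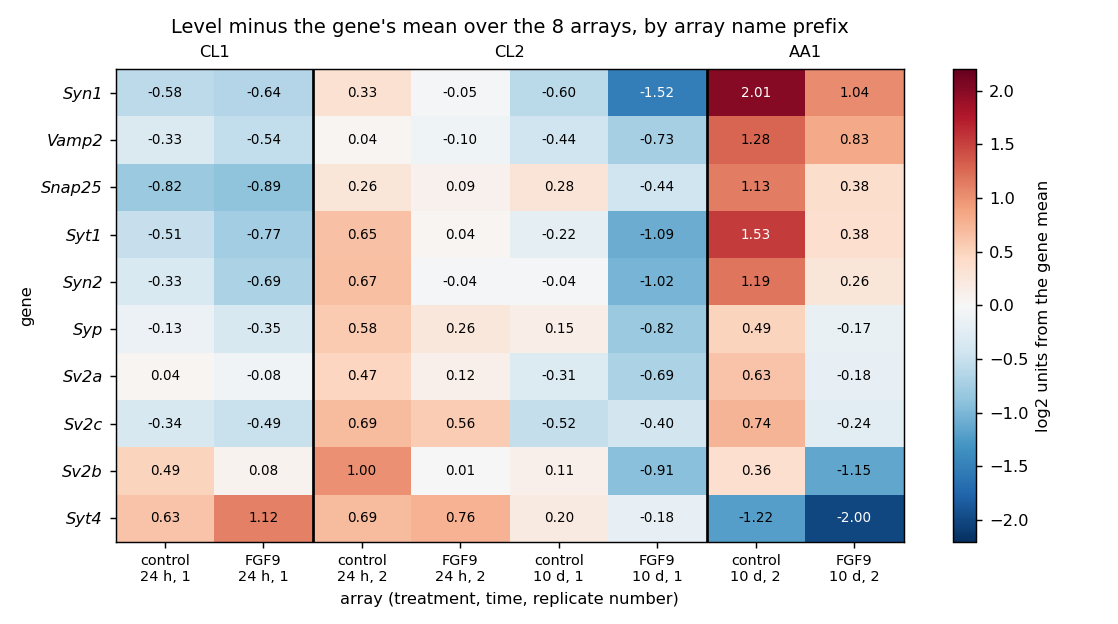
Level of each gene on each array minus that gene's mean over the 8 arrays (log2 units; red above, blue below), with arrays ordered by prefix and lines between prefixes. Syn1 reaches 2.01 in the AA1 control and -1.52 in the CL2 FGF9 array of 10 days, and Syt4 runs the other way, from 1.12 in the CL1 FGF9 array to -2.00 in the AA1 FGF9 array.

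The members did not all vary together. Over the 8 arrays, which share 3 prefixes, Pearson's r was 0.989 between Syt1 and Syn2 and 0.98 between Vamp2 and Syn1. Syt4 was correlated below 0 with Vamp2 (-0.756), Snap25 (-0.632) and Syn1 (-0.624), and Sv2b was close to unrelated to Vamp2 (-0.011) and Snap25 (0.055). These describe 8 arrays that differ by prefix and time as well as by FGF9. Genes outside the members and the 5 lists given below were ranked by correlation with the mean of the 10, each scaled to unit SD. The most alike were Kctd8 (r = 0.993), Spryd3 (0.991), Gpr26 (0.99), Vwa5b2 (0.99) and Mal2 (0.989). The 5 most like Sv2b were Lpgat1l1 (0.975), Med24 (0.964), Tmem126b (0.946), Herc2 (0.946) and Kcna6 (0.94), and the lists share no gene. Genes without a standard name (symbols that start with LOC or RGD) were left out of both rankings.

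The rest of the release machinery was taken from 5 lists with 107 entries, of which 95 were measured. With the block 24 of the 95 fell and 3 rose at 10 days (25.3% fell, against 3.31% of all genes; 3.12% of all genes rose), with a median of -0.37. Without 10 days pair 2, 11 fell and 0 rose; without either 24 h pair, 14 fell and 0 rose. At 24 h none passed with the block or without it. At an unadjusted p under 0.05 were 14 with the block and 0 without, beside 1800 and 280 of all 14506 genes. Of the 95, 84 were lower, against 50.3% of all genes, and the median was -0.20.

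Among other calcium sensors 4 of 16 fell at 10 days, with a median of -0.53 that ran from -1.17 to -0.076 on leaving out 1 array. Doc2a, a high-affinity calcium sensor, fell by 1.46 ± 0.16, Syt2, the fast sensor of many spinal and brainstem neurons, by 1.42 ± 0.13, and Syt5 by 1.15 ± 0.14 (adjusted p = 0.0173, 0.016 and 0.0195). Syt2 stood at 9.63 and 10.52 in the 10-day controls and at 8.15 and 9.15 with FGF9; at 24 h the values were 8.23 and 9.89 in controls and 8.23 and 9.80 with FGF9. At the early time the Syt2 difference was -0.051 ± 0.13. Syt13 had the smallest p of this group at 24 h (-0.45 ± 0.15, adjusted p = 0.325).

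Active zone and priming proteins, which dock vesicles at the release site, had a median of -0.55, and 5 of 21 fell (9 without 10 days pair 1 and 2 without 10 days pair 2). Leaving out 1 array moved the median from -1.32 to -0.029. Ppfia2 and Ppfia3, liprin-alpha scaffolds, fell by 1.22 ± 0.15 and 1.07 ± 0.13, and Pclo, the large scaffold piccolo, by 1.14 ± 0.16 (adjusted p = 0.0197, 0.0195 and 0.0221). Without 10 days pair 2 Pclo did not pass (adjusted p = 0.0564). It also had the smallest p of the group at 24 h (-0.54 ± 0.16, adjusted p = 0.287). Of proteins that retrieve vesicles by endocytosis 6 of 15 fell and 1 rose, with a median of -0.31. Without either 24 h pair, and without 10 days pair 2, 1 fell and 0 rose. They included Dnajc6, the clathrin-uncoating cofactor auxilin (-1.16 ± 0.17), Dnm1, the membrane-cutting GTPase dynamin 1 (-0.89 ± 0.14), and Snap91, the clathrin adaptor AP180 (-0.79 ± 0.14), with adjusted p-values of 0.0244, 0.0275 and 0.0359. Dnm1 and Snap91 missed the threshold without either 24 h pair and without 10 days pair 2 (adjusted p up to 0.0704 and 0.101). Sh3gl2, endophilin A1, had the smallest p at 24 h (-0.52 ± 0.18, adjusted p = 0.352) and differed by 0.049 ± 0.18 at 10 days.

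Other vesicle membrane proteins had a median of -0.29, with 6 of 21 that fell and 1 that rose. Those that fell were 4 without either 24 h pair, 3 without 10 days pair 1 and 2 without 10 days pair 2. Leaving out 1 array moved the median from -0.45 to -0.056. Synpr, synaptoporin, a relative of synaptophysin, fell by 1.19 ± 0.14 and Rab3c, a vesicle GTPase, by 1.02 ± 0.13 (adjusted p = 0.0187 and 0.0209). Syngr2, a synaptogyrin made in many cell types, rose by 0.98 ± 0.16 (adjusted p = 0.031), from 9.50 and 8.83 in the controls to 10.29 and 9.99; it missed the threshold without either 24 h pair and without 10 days pair 2 (adjusted p up to 0.0904). Tmem163, a zinc transporter of vesicles, had the smallest p at 24 h (-0.62 ± 0.20, adjusted p = 0.321). Other SNARE proteins and regulators were mixed, with a median of -0.083 (-0.24 to -0.063 on leaving out 1 array), 3 of 22 that fell and 1 that rose (2 and 0 without either 24 h pair). Cplx1, a complexin, which binds the SNARE complex, fell by 1.10 ± 0.13 (adjusted p = 0.0195). Vamp1, the vesicle SNARE of many motor and brainstem neurons, fell by 1.09 ± 0.14 (adjusted p = 0.0209). Nsf, the ATPase that takes SNARE complexes apart, fell by 0.75 ± 0.14 (adjusted p = 0.0362). Nsf missed the threshold whichever pair was left out (adjusted p = 0.0639 to 0.0766). Cplx1 had the smallest p of these 22 at 24 h too (-0.66 ± 0.13, adjusted p = 0.184).

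Besides Syngr2, those that rose were Snap23, the broadly expressed relative of Snap25, and Ston2, an endocytic adaptor; these genes were named after their values were seen. Snap23 rose by 0.73 ± 0.15 (adjusted p = 0.0463), from 10.08 and 9.02 in the 10-day controls to 10.67 and 9.88, while Snap25 fell by 0.73. With the mean of all features of the gene Snap23 differed by 0.41 ± 0.14 and did not pass (adjusted p = 0.143). Ston2 rose by 0.73 ± 0.14 (adjusted p = 0.0446). Both missed the threshold without either 24 h pair and without 10 days pair 2 (adjusted p up to 0.143 for Snap23 and 0.137 for Ston2).

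**Figure D4:**
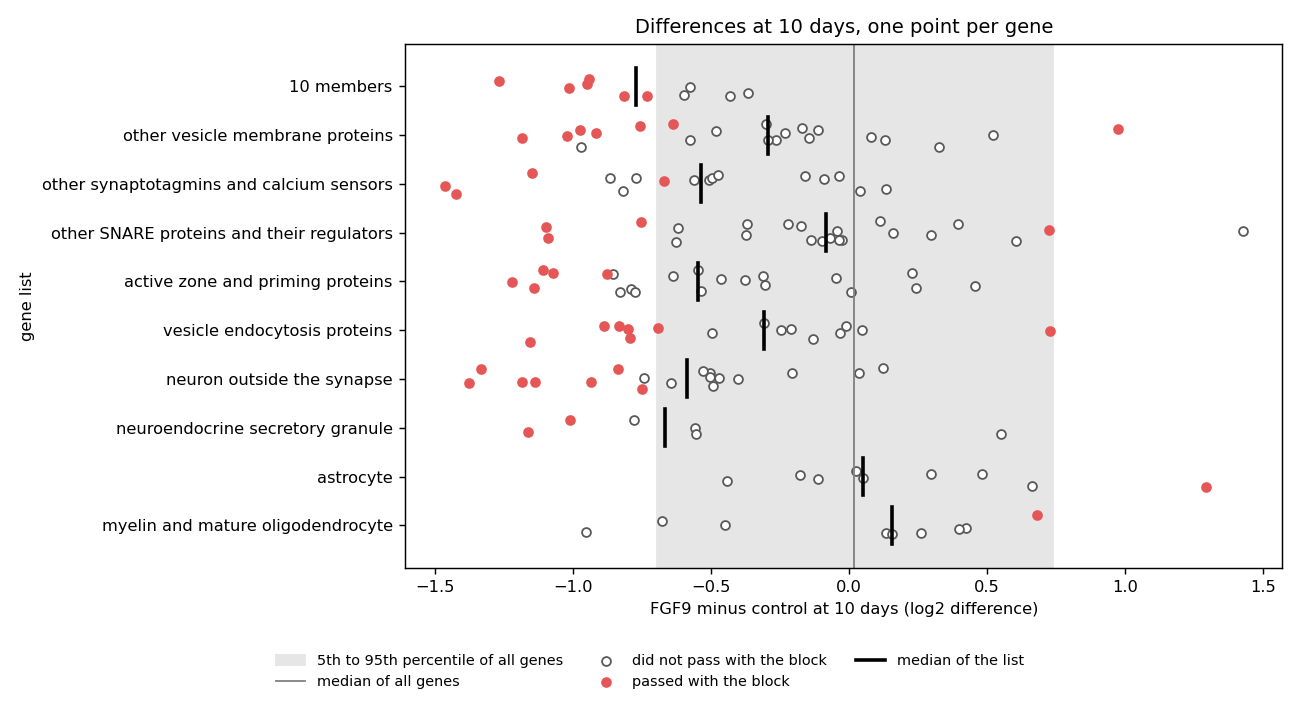
FGF9 minus control at 10 days in log2 units, with 1 point per gene and 1 line per list; filled points passed with the block, black bars are list medians, and the grey band spans the 5th to 95th percentile of all genes. The 10 members have a median of -0.77, neuron markers outside the synapse -0.59, astrocyte markers 0.049 and myelin markers 0.16.

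Neuron markers that are not part of the synapse were also lower at 10 days. Of 18 measured, 16 had a lower mean with FGF9 and 7 fell with the block (4 without either 24 h pair), against 46.8% of all genes lower and 3.31% that fell. Their median was -0.59, at -0.56 in pair 1 and -0.70 in pair 2. The 10 members' medians were -0.79 in pair 1 and -0.86 in pair 2. Elavl2, an RNA-binding protein of neurons, fell by 1.38 ± 0.13 and Nefm, neurofilament medium chain, by 1.33 ± 0.15 (adjusted p = 0.0163 and 0.0173). At 24 h the marker median was -0.24, beside -0.23 for the 10 members. The 2 markers with a higher mean with FGF9 were Gap43 and Isl1, at 24 h as at 10 days. Gap43 differed by 0.93 ± 0.24 at 24 h (adjusted p = 0.237 in limma with the block) and by 0.12 ± 0.24 at 10 days. The mean level of the neuron markers ran from 9.65 to 10.57 over the 24 h arrays and from 9.35 to 10.70 over the 10-day arrays. Of the 18, only Isl1, a motor neuron factor, stayed near the 5th percentile of gene values (4.85 to 4.98), at 4.83 to 5.01. Their part in the differences of the 10 members was not tested.

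Markers of other cells had other medians. At 10 days these were 0.049 for 9 astrocyte markers, 0.16 for 9 myelin markers, 0.72 for 5 oligodendrocyte precursor markers and 0.34 for 3 Schwann cell markers, and -0.09 for 6 microglial, -0.27 for 6 fibroblast and pericyte and -0.25 for 4 endothelial markers. The pairs went opposite ways for the microglial (-0.65 in pair 1 and 0.38 in pair 2), fibroblast and pericyte (-0.60 and 0.012) and endothelial markers (-0.55 and 0.10), and also for the astrocyte (-0.10 and 0.25), myelin (-0.086 and 0.079) and Schwann cell markers (-0.057 and 0.78). With the block, 1 astrocyte marker rose at 10 days (Fgfr3, 1.29 ± 0.18) and 1 myelin marker (Ugt8, 0.68 ± 0.14). So did 1 precursor marker (Cspg4, 1.70 ± 0.14) and 1 Schwann cell marker (Pmp22, 1.52 ± 0.30). Their adjusted p-values were 0.022, 0.0469, 0.0143 and 0.0426, and 3.12% of all genes rose. Whether these calls hold without single pairs was not tested. A lower mean with FGF9 at 10 days was seen for 3 of 9 astrocyte markers (Gfap, Aqp4 and S100b). It was also seen for 3 of 9 myelin markers (Mog, Mobp and Opalin). The same held for 1 of 5 precursor markers (Pdgfra) and 1 of 3 Schwann cell markers (Egr2), against 46.8% of all genes. None of the markers of these other cells fell with the block. At 24 h, when no gene passed, the astrocyte median was -0.58 and the myelin median -0.54. The AA1 pair, where Syn1 and Vamp2 were highest, had the lowest mean level of fibroblast and pericyte markers (6.57 and 6.51, against 9.10 to 9.98 in the 6 other arrays). What this difference contributes to the members' levels in that pair was not tested; it is shared by its control and FGF9 arrays.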

How the data were processed

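The 8 RNA samples were hybridised to 8 Affymetrix arrays of the type Rat Gene 1.0 ST. The deposited values are log2 expression of each feature on each array (the scale is read from the values). Partek 6.5 and GCRMA are named in the submitters' processing notes, and no other step is stated in the labels. Values were used as deposited. Of 29214 features, 15310 had 1 symbol in the platform annotation, and for the 527 genes with several features the one with the highest mean was taken, which left 14506 genes; the files name no genome build.

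Groups and replicate numbers come from the sample titles. Group means were estimated by limma 3.58.1 under R 4.3.3, using lmFit and eBayes (4 residual degrees of freedom), and Benjamini-Hochberg adjustment over all genes at 0.05, without and with the array name prefix (3 levels) as a block (2 residual degrees of freedom). Both arrays of a pair share a prefix, so for FGF9 effects this equals a block for the 4 pairs. Pairing rests on the shared prefix and number and on the correlation of deviations given in the report; what the prefix stands for is not stated in the labels. The 5 contrasts were FGF9 at each time, their difference, and time in control and in FGF9 cultures. The number of arrays limits the precision. The fits were tested on simulated data with known changes, where the check was on the median estimates only and not on the p-values.

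The members, lists and tests were chosen with earlier results of these data known. Named genes are the 10 members; from each pathway list the 3 with the smallest p with the block at 10 days and 1 at 24 h; from marker lists up to 2; and the 5 most similar profiles. Promoter windows, and the motifs, searched by exact match, were chosen after the values were seen.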

Additional observations from a re-analysis of the deposited data

Results flagged for a closer look

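Syt4 was the member whose FGF9 effect had opposite signs at the 2 times in every pair. FGF9 minus control was 0.49 and 0.073 in the 24 h pairs and -0.38 and -0.78 in the 10-day pairs, and the 10-day effect minus the 24 h effect was -0.86 ± 0.25 log2 units (SE with the pair as a block). The test of this difference did not pass over all genes (adjusted p = 0.273 in limma with the block and 1.00 without it; unadjusted p = 0.0133 with the block). Its level also differed between prefixes, from 9.01 in the FGF9 array to 9.78 in the control array of AA1 and from 10.82 to 12.12 in the 6 other arrays.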

How the results depend on the processing

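With the replicate block the genes called went from 0 to 933 for the FGF9 effect at 10 days (members 0 to 6), from 0 to 7 for the difference of FGF9 effects, 10 days minus 24 h, from 0 to 1 for 10 days against 24 h in control cultures and from 0 to 1589 for 10 days against 24 h in FGF9 cultures (members 0 to 7). The time counts with the block are no test, as the report says. With the prefix as a random block they were 151 (members 1), 4, 0 and 209 (members 0). The block changed no other member call, and at 24 h it called 0. Members lower at 10 days within prefix CL2 were 9 in controls and 10 with FGF9, against 4 and 6 over all arrays. Leaving out 1 pair in the fit with the block, which leaves 1 residual degree of freedom, gave these genes called with the replicate block: FGF9 effect at 10 days 469 (without either 24 h pair), 1506 (without 10 days pair 1) and 569 (without 10 days pair 2), with 1 to 6 members. The 24 h effect gave 0 to 237 genes, and time with FGF9 486 to 2406 genes and 1 to 8 members. Quantile normalization, subtracted array medians, a filter on dim genes, feature means and eBayes with trend and robust each kept the same 6 members with the block; the combinations of the block with another choice were chosen after seeing the data. Without the block, leaving out 1 array unbalances the pairs (a lone array is assumed to vary like the others) and turned these log2 differences. At 24 h: Sv2c -0.67 to 0.39, Syt1 -1.02 to 0.15, Snap25 -0.66 to 0.42, Vamp2 -0.40 to 0.041, Syn1 -0.67 to 0.23, Syp -0.63 to 0.087, Cplx1 -1.35 to 0.031, Pclo -1.08 to 0.0047. At 10 days: Sv2c -1.06 to 0.20, Syt4 -1.49 to 0.33, Vamp2 -1.23 to 0.49, Syn1 -2.24 to 0.36, Syt5 -2.50 to 0.20, Chgb -2.12 to 0.10; Sv2c with the block was -0.98 to 0.12. Difference of effects: Sv2a -0.82 to 0.11, Sv2c -0.92 to 0.34, Syt1 -1.45 to 0.30, Syt4 -1.77 to 0.050, Vamp2 -1.05 to 0.67, Syn1 -2.02 to 0.58, Syn2 -1.06 to 0.22. Over the alternatives that leave out no array, 547 values of single genes were compared, those of the fit with the block with that fit and all others, the random block included, with the fit without a block: 517 kept direction and call, 29 gained a call, 1 lost it (Snap23, with feature means) and 0 turned. Against the fit with the block, the random block lost 5 of the 6 member calls. Medians that also went above 0 at 24 h on leaving out 1 array were those of the 10 members (to 0.12), active zone (0.23), SNARE (0.030), calcium sensor (0.071) and endocytosis proteins (0.039).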

Other observations

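Dense-core secretory granules store peptides rather than the classical transmitters of synaptic vesicles. Of 6 granule genes measured, 5 were lower with FGF9 at 10 days, against 46.8% of all genes. The median was -0.67. Scg5, a chaperone of prohormone convertase, fell by 1.16 ± 0.14 and Chgb, the granule protein chromogranin B, by 1.01 ± 0.13 with the pair as a block (adjusted p = 0.0195 and 0.0205), against 3.31% of all genes that fell. Scg2, named after its value was seen, differed by 0.55 ± 0.28 and did not pass (adjusted p = 0.298), with 1.14 and -0.039 in the pairs. At 24 h the median of these genes was -0.26 and 0 of 6 passed with the block or without it. With the block 1 of 6 was at an unadjusted p under 0.05, beside 1800 of all 14506 genes.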
